A study of Mus musculus with 5 samples.

Results

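The genes described here encode the enzymes that write, maintain and remove methyl groups on cytosine in DNA. The set held 9 genes of the 27729 in the deposited tables. It was listed by name and no measured value entered the rule, but earlier results of these data were known. Its members were Dnmt1 and Uhrf1 for maintenance, Dnmt3a and Dnmt3b for de novo methylation, Tet1, Tet2 and Tet3 for oxidation, and Tdg and Gadd45a for excision and repair. Their mRNA was followed while mouse embryonic fibroblasts (MEFs) were turned towards neuron-like cells by a defined medium. MEFs are connective tissue cells grown from embryos; these came from mid-gestation embryos of the outbred ICR strain, with the head and internal organs removed.

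The labels name no genotype or transgene for these cells. The day 0 library came from MEFs in DMEM with 10% fetal bovine serum. The other libraries came from cells after 2, 5, 10 and 14 days without serum in a defined medium, which the study calls 5C and the labels call 6C, and which holds DMEM/F12, N2 supplement (a mix that includes insulin), 2-mercaptoethanol, vitamin C and the growth factors bFGF and LIF. The treatment text beside the labels puts the last harvest 1 day later than the label does. There was 1 library per day, so the time in the medium cannot be told apart from differences between cultures or library preparations. No difference between days has a replicate check, and no test between days was possible. Each library was made from a whole culture, so a change in RNA per cell and a change in the number of cells of a type cannot be told apart.

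In mammals, DNA methylation lies mostly on cytosines followed by guanine (CG). Dnmt3a and Dnmt3b place it on unmethylated DNA. Each round of DNA replication leaves the new strand without the mark. Uhrf1 binds such half-marked sites and brings Dnmt1, which copies the mark onto the new strand. The Tet enzymes oxidize 5-methylcytosine to 5-hydroxymethylcytosine and beyond, using iron and 2-oxoglutarate, and vitamin C, which the medium holds, is a known aid to their activity. Tdg cuts out the most oxidized forms, after which base excision repair puts back an unmarked cytosine. Gadd45a, a small stress-response protein without enzyme activity of its own, has been linked to this removal. No DNA methylation was measured in these samples.

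The expected counts, which RSEM estimates for each gene and which need not be whole, summed to between 2253716 at day 2 and 3890310 at day 0, and 3 counts corresponded to between 0.771 and 1.33 counts per 1000000. In the day 2 library, Gm42418, a gene overlapping ribosomal RNA sequence, held 4.79% of the counts, against at most 0.109% on the other days. All 10 fibroblast markers were detected in every library, with a summed level of 1827 TPM (transcripts per 1000000, a unit that corrects for gene length) at day 0 and 9014 TPM at day 14. In normalized counts, however, 4 of the 10 were higher and 3 lower by over 2-fold at day 14, among them Dcn at 4.86 and Twist2 at −2.71 on the log2 scale. The summed level of 10 macrophage markers was 64.3 TPM at day 0, 518 at day 2, 1757 at day 5, 1245 at day 10 and 767 at day 14. That of 10 Schwann cell and neural crest markers was 17.6, 20.4, 229, 2206 and 2277 TPM, that of 8 neural stem cell and astrocyte markers 56.7 TPM at day 0 and 427 at day 14, and that of 10 neuron markers 104 TPM at day 0 and 121 at day 14. Of the 6 neuron markers tested, 3 were higher and 3 lower by over 2-fold at day 14, such as Tubb3 at 2.81 and Map2 at −2.08. Beside these counts and those of the fibroblast markers, 24.5% of all genes tested were higher and 19.9% lower by as much at day 14. Among the neuron markers, Rbfox3, which marks mature neurons, had no count in any library. The part of these changing cell types in the results below was not tested.

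Promoter stretches of 3 members are shown. The maintenance pair, whose counts had also parted at day 2, parted at day 14, when most genes of DNA replication were lower. Tdg was the member over 2-fold lower at day 2. The stretches are RefSeq sequences of build GRCm38.p6, on the strand of the gene. Each ends where the annotated exon of the start it precedes begins. Capitals in the Uhrf1 stretches mark TTTNNCGC, a core of the E2F sites that are common at genes of S phase, and capitals in the Tdg stretch mark the cAMP response element TGACGTCA. Both motifs were searched on both strands. The Uhrf1 stretches are chr17:56303087-56303320 and chr17:56304063-56304312 on the plus strand, which precede alternative starts of the gene, the second of them inside the gene. The Dnmt1 stretch is chr9:20952980-20953229 on the minus strand, inside the annotated gene (chr9:20907209-20959888), which also has a start further upstream, and the Tdg stretch is chr10:82629588-82629827 on the plus strand.
Uhrf1, upstream start: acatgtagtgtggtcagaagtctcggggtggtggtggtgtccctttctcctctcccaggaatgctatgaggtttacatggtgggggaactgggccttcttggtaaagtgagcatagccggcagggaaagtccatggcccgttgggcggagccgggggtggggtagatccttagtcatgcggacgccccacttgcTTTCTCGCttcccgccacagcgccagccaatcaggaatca
Uhrf1, downstream start: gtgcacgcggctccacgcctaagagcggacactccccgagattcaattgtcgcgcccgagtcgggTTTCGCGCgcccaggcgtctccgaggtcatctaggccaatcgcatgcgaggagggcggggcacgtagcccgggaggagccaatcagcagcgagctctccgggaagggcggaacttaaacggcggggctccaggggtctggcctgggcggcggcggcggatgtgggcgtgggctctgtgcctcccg
Dnmt1: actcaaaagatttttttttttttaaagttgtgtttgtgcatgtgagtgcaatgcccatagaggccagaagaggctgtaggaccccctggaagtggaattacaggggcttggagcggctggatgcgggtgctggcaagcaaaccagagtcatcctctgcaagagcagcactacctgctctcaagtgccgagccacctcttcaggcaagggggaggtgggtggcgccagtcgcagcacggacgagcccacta
Tdg: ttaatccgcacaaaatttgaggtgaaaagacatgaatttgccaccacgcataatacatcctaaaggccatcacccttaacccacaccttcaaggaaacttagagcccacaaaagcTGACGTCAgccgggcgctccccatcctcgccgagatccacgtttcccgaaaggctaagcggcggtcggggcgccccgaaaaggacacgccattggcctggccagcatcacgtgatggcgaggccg

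Among 32851 promoter windows of 300 bases, TTTNNCGC occurred in 5.17% and TGACGTCA in 1.79%. Each Uhrf1 window held 1 match to TTTNNCGC. Of the 3 Dnmt1 windows, the one that contains the stretch shown held 0 matches, a second held 0, and the third, at chr9:20952574-20952873, held 3, of which the matches at positions 32 and 34 from its upstream end overlap each other; 216 of its 300 bases are annotated as Dnmt1 exon. The windows of the de novo and oxidation genes held none. CG dinucleotides, the substrate of these enzymes, were counted too. The median window of all promoters held 7 of them, while the Tet2 window held 57, more than 99.8% of windows, and the 3 Dnmt3a windows held 46, 47 and 18. A match is a stretch of letters and was not tested as a binding site.

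Normalized counts are expected counts scaled for library size with trimmed-mean (TMM) factors, and each change is the log2 of the ratio of such a count to that of day 0, after 1 was added to both. The 95% interval of a level is an exact Poisson interval and that of a log2 change an exact Clopper-Pearson interval, and both cover counting error only. With a threshold of 2-fold, 0 members were higher and 1 was lower at day 2, where 15.2% of the 13346 genes tested were higher and 13.1% lower by as much. At day 5, 2 members were higher and 0 lower, against 20.2% and 13.6% of genes tested. At day 10, 6 members were higher and 0 lower, against 28.7% and 22.3%, and at day 14, 6 were higher and 1 lower, against 24.5% and 19.9%. The same shares of all genes tested apply beside the counts of the gene lists described below. Dnmt3b and Tet1 passed the minimum of 10 expected counts only through the library in which they were highest. Of the other 7 members, 4 were higher at day 10, and at day 14 4 were higher and 1 lower.

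**Figure D1:**
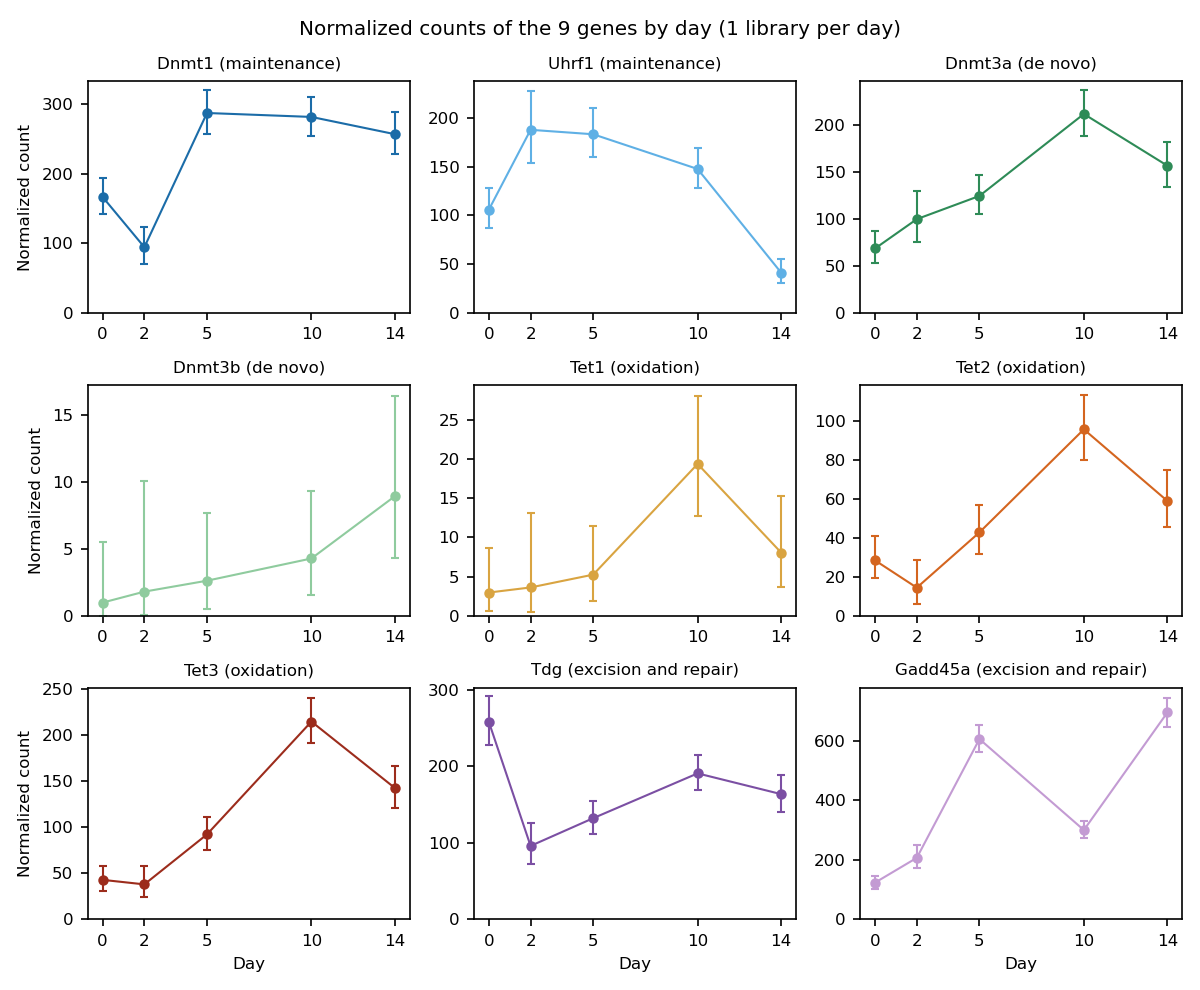
Normalized count (vertical axis, from 0) against day (horizontal axis) for each of the 9 genes, 1 library per day; bars are 95% Poisson intervals, which cover counting error only. On this scale Dnmt3a, Tet1, Tet2 and Tet3 peak at day 10, Dnmt1 stays near its day 5 level, and Uhrf1 is lowest at day 14, at 41.1.

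The maintenance genes moved apart. Dnmt1, the maintenance methyltransferase, had 166 normalized counts at day 0, 94.1 at day 2, 287 at day 5, 281 at day 10 and 257 at day 14. It was lowest at day 2, and its normalized counts stood on a plateau from day 5. The plateau was not seen on every scale. Relative to the median of genes of like length, Dnmt1 was at 0.44 at day 5, −0.04 at day 10 and 0.16 at day 14. On the TPM scale it was highest at day 10. In normalized counts the log2 change of Dnmt1 against day 0 was −0.82 (95% interval −1.30 to −0.36) at day 2, 0.78 (0.52 to 1.06) at day 5, 0.75 (0.49 to 1.03) at day 10 and 0.62 (0.35 to 0.91) at day 14. None of these passed 2-fold, but the step from day 2 to day 5 did, at 1.60 (1.18 to 2.06). In that step 4 of the 9 members were over 2-fold higher, against 19.0% of genes tested.

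Uhrf1, which reads half-methylated CG sites, had 106 normalized counts at day 0, 188 at day 2, 184 at day 5, 148 at day 10 and 41.1 at day 14. It was highest on days 2 and 5, when Dnmt1 had its lowest and its highest value, and was lowest at the end; with library totals and on the TPM scale its highest days were 5 and 10. The log2 change was 0.82 (0.43 to 1.23) at day 2 and −1.34 (−1.90 to −0.85) at day 14. Between day 10 and day 14 it was −1.82 (−2.34 to −1.38), in a step where 8.33% of genes tested were lower by over 2-fold and where the other member below that threshold was Tet1. At day 14 the change was −0.99 with library totals in place of TMM factors and −0.31 on the TPM scale, both short of 2-fold; those scales moved the median of all genes tested to 0.42 and 0.78, and relative to these medians Uhrf1 stood at −1.41 and −1.09.

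The count of Uhrf1 per count of Dnmt1, which depends on no scaling between libraries, was 0.637 at day 0 (95% interval 0.495 to 0.816), 2.00 at day 2 (1.42 to 2.85), 0.640 at day 5 (0.536 to 0.764), 0.525 at day 10 (0.442 to 0.623) and 0.160 at day 14 (0.115 to 0.219). The intervals of days 2 and 14 overlap none of the other days' intervals.

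Genes of DNA replication were examined beside the maintenance genes. Of 20 such genes, 0 were higher and 3 lower by over 2-fold at day 10, and 0 were higher and 13 lower at day 14, when the median log2 change was −1.32 (−0.54 on the TPM scale). Rrm2, a subunit of the enzyme that makes deoxynucleotides, was at −5.17 (−6.58 to −4.36) at day 14, and Mcm2, part of the replicative helicase, at −1.99 (−2.50 to −1.56). Mcm4 of the same helicase was at −0.15 (−0.59 to 0.30), and Pcna, the sliding clamp that also binds Dnmt1, was at 0.50 (0.15 to 0.86). Uhrf1 was at 0.82, 0.79 and 0.48 on days 2, 5 and 10, above the medians of this list at 0.28, 0.23 and −0.50. At day 14 Uhrf1, at −1.34, lay next to the median, while Dnmt1, at 0.62, was above all 20 genes of the list. Relative to genes of like length, however, Pcna stood at 1.05 and Dnmt1 at 0.16.

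Other factors of methylation and its maintenance were also measured. Of 8 listed, 6 passed the minimum count, and at day 14 1 was over 2-fold higher and 0 lower, with a median log2 change of −0.07 (0.92 on the TPM scale). The higher gene was Uhrf2, the paralogue of Uhrf1, at 1.14 (0.80 to 1.49), with 98.5 normalized counts at day 0, 95.9 at day 2, 199 at day 5, 179 at day 10 and 218 at day 14. Uhrf2 was thus near its MEF level at day 2 and above it from day 5 on, including day 14, when Uhrf1 was lowest. Hells, a chromatin remodeller needed for methylation of repeats, had a log2 change of −0.82 (−2.15 to 0.21), Cdca7l, a relative of its partner, −0.41 (−1.62 to 0.70), and Usp7, which stabilizes Dnmt1 and Uhrf1, 0.09 (−0.14 to 0.33). Dppa3, which keeps Uhrf1 from chromatin in oocytes, had no count in any library.

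**Figure D2:**
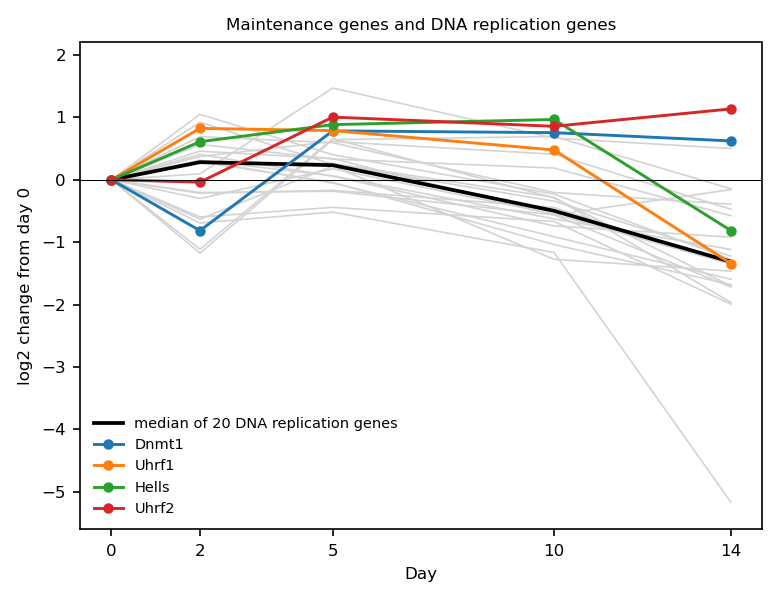
Log2 change from day 0 (vertical axis) against day (horizontal axis) of Dnmt1, Uhrf1, Hells and Uhrf2 (coloured), of 20 genes of DNA replication (grey) and of their median (black), 1 library per day. Uhrf1 ends at −1.34, next to the black line at −1.32, while Dnmt1 ends at 0.62.

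Of the de novo methyltransferases, Dnmt3a was the one expressed at an appreciable level. It had 68.3 normalized counts at day 0, 99.5 at day 2, 124 at day 5, 211 at day 10 and 156 at day 14. The counts were higher on each day up to day 10 and lower at day 14, but still above day 0. Relative to genes of like length the steps after day 5 were 0.07 from day 5 to day 10 and 0.05 from day 10 to day 14, so the peak at day 10 was not seen on that scale. Against day 0 the log2 change was 0.54 (0.00 to 1.08) at day 2, 0.85 (0.44 to 1.30) at day 5, 1.62 (1.25 to 2.03) at day 10 and 1.18 (0.79 to 1.62) at day 14. On the TPM scale it was 1.33 at day 10 and 0.91 at day 14, or 0.24 and 0.13 above the median of all genes on that scale. The length of Dnmt3a that the deposited tables give, an average over its transcripts weighted by their estimated use, was 3308 bases at day 0, 3176 at day 2, 6879 at day 5, 8427 at day 10 and 6924 at day 14. By this estimate the longer transcripts received more of the gene's reads from day 5 on. The estimate rests on 69 expected counts at day 0 and 55.02 at day 2, and no error was computed for it. Its relation to the trend with length among all genes, described below, was not tested. Exons of Dnmt3a share 133 bases with Dnmt3aos on the opposite strand, which had 0 counts in every library.

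Dnmt3b, the de novo enzyme of early embryos and pluripotent cells, was barely detected. It had 1, 1, 3, 6 and 10 expected counts over the 5 days, or 0.990, 1.81, 2.63, 4.28 and 8.94 normalized counts. The intervals of all 5 levels overlap in part, from 0.0251 to 5.51 at day 0 and from 4.29 to 16.4 at day 14. The log2 change at day 14 was 2.32, with an interval of 0.36 to 8.61, since it rests on a single count at day 0. Their cofactor Dnmt3l, which has no activity of its own, reached at most 3 expected counts.

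The Tet genes shared a peak at day 10. Tet3 had 42.6 normalized counts at day 0, 37.6 at day 2, 91.9 at day 5, 214 at day 10 and 142 at day 14. The change began between days 2 and 5, and the day 14 level lay between those of days 5 and 10. Relative to day 0 it was −0.17 (−0.99 to 0.62) at day 2, 1.09 (0.59 to 1.66) at day 5, 2.30 (1.87 to 2.83) at day 10 and 1.72 (1.25 to 2.26) at day 14. Tet3 is the form abundant in the oocyte and in neurons.

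Tet2, which lacks the CXXC domain that lets its relatives bind CG-rich DNA, had 28.5 normalized counts at day 0, 14.5 at day 2, 42.9 at day 5, 95.8 at day 10 and 59.0 at day 14. The order of the days was that of Tet3, with the lowest value at day 2. Its log2 change stood at −0.93 (−2.33 to 0.18) at day 2, 0.57 (−0.11 to 1.29) at day 5, 1.71 (1.15 to 2.37) at day 10 and 1.02 (0.39 to 1.72) at day 14. Of all 36 pairs of members, Tet2 and Tet3 had the most similar profiles, with a root-mean-square difference of 0.269 between their centred log2 values over the 5 days.

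Tet1, the form typical of pluripotent and germ cells, had 3, 2, 6, 27.09 and 9.01 expected counts, or 2.97, 3.62, 5.25, 19.3 and 8.05 normalized counts in the same order of days. It stood out at day 10, the only library in which it reached the minimum of 10 expected counts. The log2 change was 2.36 (1.00 to 5.06) at day 10 and 1.19 (−0.56 to 3.96) at day 14, the latter with an interval that includes 0. On the TPM scale the day 14 change was 0.11, or −0.68 relative to the median of all genes on that scale. Between days 5 and 10 all 3 Tet genes were over 2-fold higher, at 1.70 for Tet1, 1.14 for Tet2 and 1.21 for Tet3, in a step where 12.8% of genes tested were. Relative to genes of like length these steps were 1.01, 0.45 and 0.52, short of 2-fold for Tet2 and Tet3, and on the TPM scale that of Tet1 was 0.37. Between days 10 and 14 all 3 were lower, at −1.17 (−2.53 to −0.13) for Tet1, −0.69 (−1.15 to −0.26) for Tet2 and −0.59 (−0.88 to −0.31) for Tet3. Relative to genes of like length these values were −0.68, −0.20 and −0.10.

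Tet3 outnumbered Tet2 on every day, with a ratio of counts between 1.49 at day 0 (0.905 to 2.46) and 2.60 at day 2 (1.12 to 6.85). On the TPM scale, which divides by length, the ratio lay between 1.26 and 2.54. The summed level of the 3 Tet genes was 2.73 TPM at day 0, 2.09 at day 2, 9.31 at day 5, 26.4 at day 10 and 12.9 at day 14. The de novo pair summed to 7.37, 9.37, 10.8, 21.8 and 17.0 TPM on the same days. The Tet sum was above that of the de novo enzymes at day 10 and below it on the other 4 days; no interval was computed for these sums.

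Genes that supply the cofactors of the Tet enzymes or clear their inhibitors moved in both directions. Of 12 tested, 3 were higher and 2 lower by over 2-fold on both day 10 and day 14. Of all genes tested, 28.7% were higher and 22.3% lower at day 10, and 24.5% and 19.9% at day 14, close to the shares in the list. The median log2 change of the list was −0.41 at day 14 (0.43 on the TPM scale). Idh1, which makes 2-oxoglutarate in the cytosol, was at 1.39 (1.18 to 1.62) at day 14, with 231 normalized counts at day 0 and 607 at day 14. D2hgdh, which clears the inhibitor D-2-hydroxyglutarate, was at 1.17 (0.55 to 1.88). Gsto1, which can reduce oxidized vitamin C, had 3452 normalized counts in MEFs and 208 at day 14, and its log2 change was −4.04 (−4.25 to −3.86).

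Tdg, the glycosylase that removes oxidized methylcytosine, had 258 normalized counts at day 0, 95.8 at day 2, 132 at day 5, 191 at day 10 and 164 at day 14. It was highest in MEFs and lowest at day 2, where it was the member over 2-fold lower, at −1.42 (−1.88 to −0.999). Against day 0 the log2 change was −0.96 (−1.27 to −0.67) at day 5, −0.44 (−0.69 to −0.19) at day 10 and −0.66 (−0.94 to −0.38) at day 14. The sign on the later days depended on the scale: with library totals the day 10 change was 0.04, and on the TPM scale it was 0.93 at day 10 and 0.21 at day 14, which are −0.16 and −0.57 relative to the median of all genes on the TPM scale. The processed pseudogene Tdg-ps has no row in the tables, and whether its reads were counted as Tdg was not tested. Tdg also shares 367 exon bases with Glt8d2 on the opposite strand, which had at most 22.57 counts.

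Gadd45a had 123 normalized counts at day 0, 206 at day 2, 605 at day 5, 299 at day 10 and 695 at day 14. It reached its highest values on days 5 and 14, with a lower value between them. Relative to day 0 it was 0.74 (0.37 to 1.13) at day 2, 2.29 (2.03 to 2.59) at day 5, 1.28 (0.99 to 1.59) at day 10 and 2.49 (2.23 to 2.79) at day 14. The dip from day 5 to day 10 was −1.01 (−1.20 to −0.84), where 9.50% of genes tested were lower by over 2-fold, and the later step from day 10 to day 14 was 1.21 (1.04 to 1.39), when 4.73% of genes tested were higher by over 2-fold. Neither step passed 2-fold on every scale. The first was −0.92 with library totals, −0.64 on the TPM scale and −0.48 relative to genes of like length, and the second was 1.10, 0.996 and 0.86. Gadd45a shares 337 exon bases with E230016M11Rik on the opposite strand, which had at most 12.79 counts.

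The other Gadd45 genes behaved differently over the same days. Gadd45g fell from 1401 normalized counts at day 0 to 593 at day 2, 126 at day 5 and 104 at day 10, and stood at 456 at day 14. Gadd45b had 159, 65.1, 35.0, 34.3 and 181 normalized counts. At day 10 the log2 changes were −3.74 for Gadd45g, −2.18 for Gadd45b and 1.28 for Gadd45a. From day 10 to day 14 the counts of all 3 were higher.

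**Figure D3:**
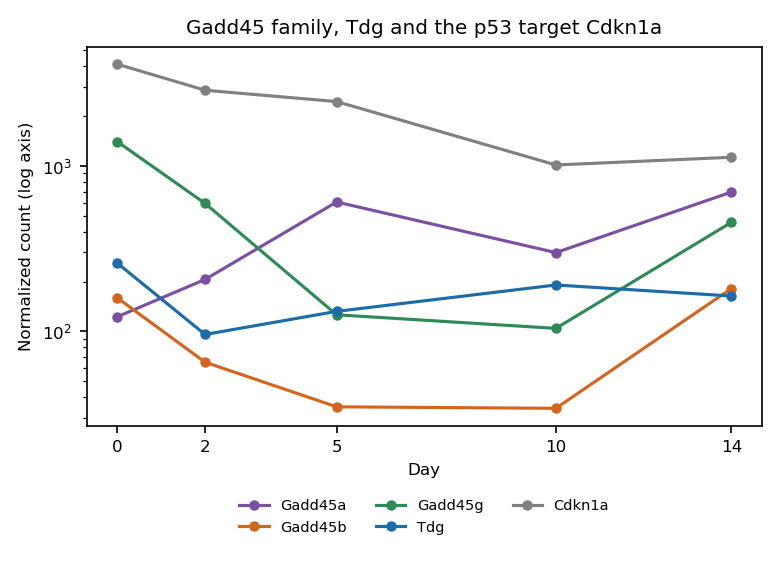
Normalized count (vertical log axis) against day (horizontal axis) for the 3 Gadd45 genes, Tdg and Cdkn1a, 1 library per day. Gadd45a goes from 123 to 695 while Gadd45g goes from 1401 to 104 at day 10 and back to 456.

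Since Gadd45a is a target of p53 and of cell stress, 10 genes of these responses were examined. Of these, 2 were higher and 6 lower by over 2-fold at day 14, with a median log2 change of −1.31 (−0.43 on the TPM scale). Cdkn1a, the cell cycle inhibitor that is the textbook target of p53, fell from 4119 normalized counts at day 0 to 1128 at day 14. Bax, which promotes cell death, was at −2.26 (−2.42 to −2.12), and Ddit3, a transcription factor of endoplasmic reticulum stress, at −3.26 (−3.49 to −3.05). Btg2, an antiproliferative p53 target, was at 1.63 (1.46 to 1.82), and Atf3, a stress-induced transcription factor, at 4.66 (4.36 to 5.02).

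The partners in excision and repair moved in both directions. Of 17 listed, 15 were tested. At day 14, 2 were higher and 3 lower by over 2-fold, against 24.5% and 19.9% of all genes tested. The median of the list was 0.19 (0.70 on the TPM scale). Mbd4, the other glycosylase that acts on deaminated methylcytosine, was at 1.75 (0.59 to 3.49) on at most 31.18 expected counts. Apobec1, a cytidine deaminase, was at 2.08 (1.23 to 3.26), with 10.9 normalized counts at day 0, 101 at day 5 and 49.2 at day 14. Apobec3, a deaminase that restricts retroviruses, was at −1.25 (−1.55 to −0.98). Immune cells express several of these genes, and the macrophage markers were highest at day 5, as Apobec1 was; their part in its level was not tested.

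Levels between genes were compared per length, as TPM. Gadd45a ranked first of the 9 on every day, with 40.3 TPM at day 0, 50.1 at day 2, 343 at day 5, 219 at day 10 and 438 at day 14. Tdg had 30.7, 9.32, 25.2, 59.5 and 35.7 TPM, Dnmt1 11.1, 5.23, 31.3, 42.1 and 31.5, and Uhrf1 11.0, 16.3, 32.0, 34.2 and 8.69. Dnmt1 and Uhrf1 were thus near each other on days 0 and 5 and apart on days 2 and 14. Dnmt3a ranged from 7.28 TPM at day 0 to 19.8 at day 10, Tet3 from 1.17 at day 2 to 15.6 at day 10, and Tet2 from 0.46 at day 2 to 8.25 at day 10. Tet1 was at or below 2.59 TPM and Dnmt3b at or below 2.39 TPM on every day. At day 10 these levels rested on 27.09 and 6 expected counts.

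Gene length moved with the changes of all genes. The genes tested were divided by length into 10 bins of equal size. In the bin of the shortest genes the median log2 change was −1.47 at day 10 and −1.04 at day 14, and in that of the longest genes it was 1.04 and 0.56. The Tet genes and Dnmt3a lie in the bin of longest genes, Dnmt1 in the bin below, and Gadd45a in the bin next to the shortest. Each change was therefore also computed relative to the median of its bin. At day 10 these values were 1.26 for Tet3, 0.67 for Tet2, 1.31 for Tet1 and 0.57 for Dnmt3a, so Tet2 and Dnmt3a were no longer 2-fold above genes of like length. At day 14 they were 1.16 for Tet3, 0.47 for Tet2, 0.63 for Tet1 and 0.63 for Dnmt3a, so Tet1, Tet2 and Dnmt3a fell short of 2-fold. Tet3 also fell short at day 5, at 0.77. Dnmt1 was at −0.04 at day 10 and 0.16 at day 14, level with genes of like length. Gadd45a stood further out, at 2.14 at day 10 and 3.04 at day 14, and so did Uhrf1 at day 14, at −1.63. By this measure 3 members were over 2-fold higher at day 10, where 23.8% of genes tested were, and at day 14 3 were higher and 1 lower, against 22.3% and 17.9%. These 3 include Tet1 at day 10 and Dnmt3b at day 14, which passed the minimum count only through those days. Of the other genes named, D2hgdh, Gadd45g, Apobec3, Mbd3, Zbtb4 and Ppia were over 2-fold from day 0 at day 14 but within 2-fold of genes of like length, at 0.89, −0.58, −0.21, −0.55, 0.93 and −0.43.

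**Figure D4:**
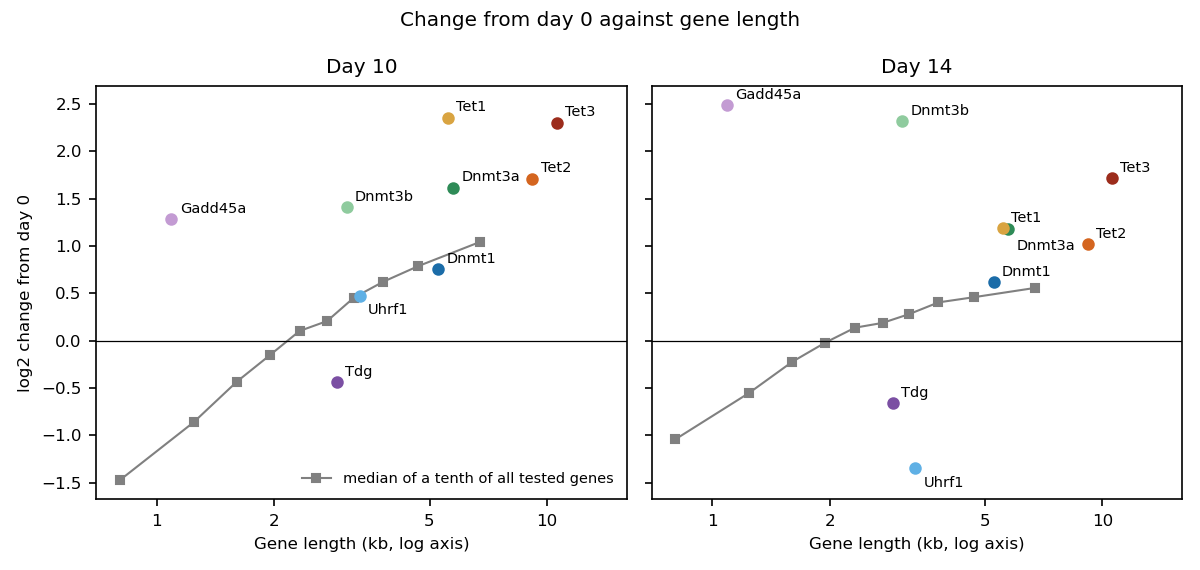
Log2 change from day 0 (vertical axis) against gene length in kilobases (horizontal log axis) on days 10 and 14; grey squares are medians of 10 bins of all genes tested by length, and coloured points are the 9 genes, 1 library per day. Gadd45a at 2.49 and Uhrf1 at −1.34 at day 14 lie far from the grey line, and Dnmt1 lies near it on both days.

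**Figure D5:**
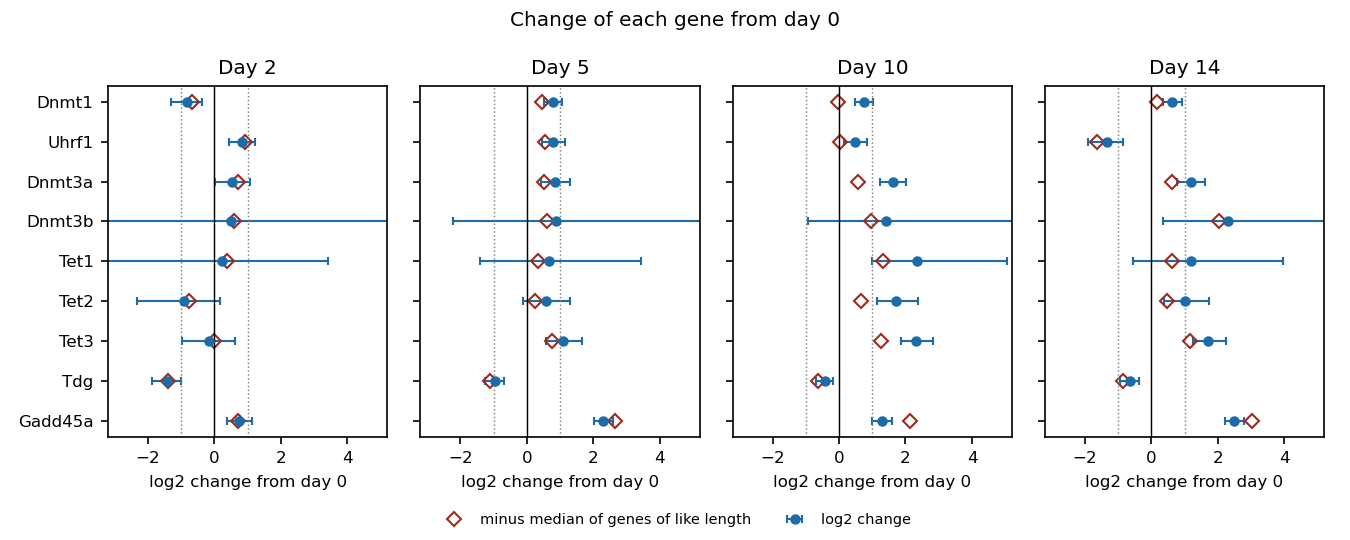
Log2 change from day 0 (horizontal axis) of each of the 9 genes on days 2, 5, 10 and 14; filled circles with bars are changes with 95% counting intervals, which for Dnmt3b and Tet1 run past the axis, open diamonds are changes relative to genes of like length, and dotted lines mark 2-fold. Tdg is left of 0 in every panel, and the diamonds of the Tet genes and Dnmt3a lie left of their circles on days 5, 10 and 14.

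The proteins that read the marks were measured beside the enzymes. Of 13 genes for methyl-CG or CXXC readers, 7 were higher and 1 lower by over 2-fold at day 10, with a median of 1.02, and 3 were higher and 2 lower at day 14, with a median of 0.65 (1.43 on the TPM scale). Relative to genes of like length the medians were 0.28 and 0.31. At day 14 Zbtb33, also called Kaiso, was at 2.30 (1.41 to 3.52) and its relative Zbtb4 at 1.49 (1.16 to 1.84). Mbd3, a subunit of the NuRD repressor complex, was at −1.10 (−1.26 to −0.95), and Zfp57, which guards methylation at imprinted loci, at −1.18 (−1.58 to −0.81), with 175 normalized counts at day 0 and 76.9 at day 14.

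The cycle that supplies S-adenosylmethionine, the methyl donor, moved in both directions. Of 11 genes tested, 1 was higher and 3 were lower by over 2-fold at day 14, against 24.5% and 19.9% of all genes tested. The median of the list was −0.43 (0.21 on the TPM scale). Mat2b, the regulatory subunit of methionine adenosyltransferase, was at 0.81 (0.47 to 1.17). Shmt1 and Mthfd1, enzymes of the folate cycle, were at −1.56 (−2.22 to −1.03) and −1.30 (−1.70 to −0.92).

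Germline genes whose promoters are kept silent by methylation were near absence throughout. Of 15 listed, 1 passed the minimum count, Ddx4, an RNA helicase of germ cells, with 1, 0, 11, 7 and 6 expected counts from day 0 to day 14. Between 10 and 13 of the 15 had no count, depending on the day. Of 10 housekeeping genes, 1 was higher and 2 were lower by over 2-fold at day 14, with a median of −0.30 (0.46 on the TPM scale). Pgk1, a glycolytic enzyme, was lowest of these at −2.76 (−2.88 to −2.65), Ppia was at −1.47 (−1.52 to −1.42), Gusb at 0.71 (0.48 to 0.94) and B2m at 1.27 (1.19 to 1.34).

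For the member with the most counts in each role, the genes with the most similar time course were sought among the 8273 genes whose expected count reached 100 in any library. For Dnmt1 these were Gtf2ird1, Mtif2 and Cdc23, with root-mean-square differences of 0.0327, 0.0394 and 0.0625 in centred log2 values over 5 libraries. For Dnmt3a they were Mios, Cic and Pcnt, at 0.0652 to 0.0761, and for Tet3 they were Phf2, Xiap and Parp4, at 0.0846 to 0.101. Gadd45a had less similar neighbours, Fam43a at 0.252, Gpc2 at 0.255 and Tubb3 at 0.300. Tubb3 encodes the tubulin whose protein the study stained to identify TuJ+ cells, while it identified neuron-like cells by their shape. Its mRNA had 22.1 normalized counts at day 0, 39.8 at day 2, 91.8 at day 5, 84.2 at day 10 and 161 at day 14. With 5 points per gene and 8273 genes compared, close matches occur among unrelated genes.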

How the data were processed

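Total RNA of 5 cultures, 1 per day, was sequenced with the Illumina TruSeq RNA kit; strandedness is not given in the sources used here. Per the labels, the submitters' processing notes name Bowtie, RSEM and the mm10 build, without roles or versions; the annotation is not given in the sources used here. The authors deposited RSEM's expected counts, with TPM and FPKM values and the transcript-weighted length of each gene. FPKM values were not used. Identifiers were matched to GENCODE M21 (GRCm38, the same build), which named 27247 of 27729 genes.

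Expected counts were rounded to compute library sizes and TMM factors with edgeR 4.0.16 in R 4.3.3; no count model was fitted, since 1 library per day leaves no replicates. The TMM factors were 0.856, 0.808, 1.11, 1.19 and 1.10 from day 0 to day 14, and the floor of 3 counts was 0.771 to 1.33 per 1000000 counts. The 13346 genes whose expected count reached 10 in any library were kept. The threshold was 2-fold. Intervals used Python 3.11.15 with scipy 1.17.1, numpy 2.4.6 and pandas 2.3.3. Calls and intervals were tested on counts simulated with Poisson error only. That setting holds no differences between cultures, so it cannot show how the calls fare against them.

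Alternatives were DESeq2 1.42.0 size factors, library totals, TMM without Gm42418 and Lars2, TPM values, centring within 10 bins of gene length, pseudocounts of 0.5 and 5, no filter and a filter of 30 counts, and thresholds of 1.5-fold and 4-fold. The genes and lists were chosen with earlier results of these data known. All members are named; from each other list, the 2 highest and 2 lowest on day 14 among genes that reached 30 expected counts in any library were to be named, with the 3 genes nearest in profile to the member with the most counts in each role. Marker lists are given as sums, counts and an example in each direction, and some genes that the rule names are not reported here. Uhrf2 on all days, Gadd45b, Gadd45g, Cdkn1a, Dppa3, Dnmt3l, Rbfox3 and Ddx4 were described beyond that rule after their values were seen.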

Additional observations from a re-analysis of the deposited data

How the results depend on the processing

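No paired analysis was possible because there was 1 library per day. For the same reason no replicate could be left out. Each number of members past the threshold stayed within 1.5 times its main value under part of the alternatives. These were DESeq2 size factors, TMM without Gm42418 and Lars2, pseudocounts of 0.5 and 5, no filter and a filter of 30 counts. They moved each list median by no more than the median half-width of the counting intervals of its single genes. No error of a list median was computed. No result past 2-fold changed sign under any alternative. Within the limit of 1.5 times, 4 members were higher at day 10 and 4 at day 14 with the filter of 30, in place of 6 and 6. The share of all genes under that filter was not computed. With the pseudocount of 5 the numbers were 5 at day 10 (25.0% of all genes tested) and 4 at day 14 (20.8%). The numbers of members over 2-fold depended on the scale, as did those of all genes tested. With library totals, 6 members were higher on day 5 (28.6% of all genes tested) and 0 lower on day 14 (13.6%), and on the TPM scale 5 (32.0%) and 0 (6.97%). Relative to genes of like length, 1 was higher and 1 lower on day 5 (18.6% and 11.4%), 3 were higher on day 10 (23.8%) and 3 on day 14 (22.3%). The members' median fell from 1.41 to 0.67 on day 10 and from 1.18 to 0.63 on day 14. The day 10 median of 1.41 is the value of Dnmt3b, from 6 expected counts against 1 at day 0. With a 1.5-fold threshold, 2 were higher and 3 lower on day 2 (24.5% and 25.7%), 7 higher and 1 lower on day 5 (30.4% and 24.7%) and 2 lower on day 14 (29.8%). With a 4-fold threshold, 0 were lower on day 2 (2.92%) and 0 on day 14 (6.11%). At that threshold 1 was higher on day 5 (8.70%), 2 on day 10 (13.9%) and 2 on day 14 (11.7%). Those higher include Tet1 on day 10 and Dnmt3b on day 14, which passed the minimum count only through those days.

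Day 14 list medians on the TPM scale were 0.92 for other writers and maintenance factors, 0.70 for excision and repair partners, 1.43 for readers, 0.21 for the methyl donor cycle, 0.43 for Tet cofactor supply, −0.54 for DNA replication, −0.43 for p53 and stress response and 0.46 for housekeeping genes, where the median of all genes tested was 0.78. With library totals they were −0.054 for Tet cofactor supply, −0.95 for p53 and stress response and 0.059 for housekeeping genes, where all genes had 0.42. The TPM scale and length centring each moved 25 of 63 single member changes beyond their counting interval, and library totals moved 14. Of 45 ranks of members within a day, 44 stayed with normalized counts per kilobase. Depth limited Dnmt3b and Tet1, with 1 to 3 expected counts on day 0.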
